A study of Mus musculus with 4 samples.

Results

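Foxp3 regulatory T cells of the mouse nasal mucosa were taken here as CD45+ cells that carried at least 1 Foxp3 UMI together with T cell receptor complex transcripts. A UMI (unique molecular identifier) marks 1 captured RNA molecule. A cell was counted when it had at least 500 UMIs, at least 200 genes and under 10% mitochondrial UMIs, with at least 2 UMIs over Cd3d, Cd3e and Cd3g, none of Cd8a or Cd8b1, fewer than 2 over C1qa, C1qb and C1qc (macrophage complement genes), and none of Cd79a (B cells) or Cxcr2 (neutrophils). This rule found 1071 cells, 1.48% of the 72320 cells kept among 79132 barcodes and 10.7% of the 10004 Cd8-negative T cells that met every other part of it. Members were thus selected on measured UMIs of these genes, and differences in them are no finding. The cells came from 4 single-cell RNA-seq libraries, 1 a group, with Vehicle and Ribavirin as the groups without allergen and Vehicle-OVA and Ribavirin-OVA as those with it. Sets of 4 values without names follow the order Vehicle, Vehicle-OVA, Ribavirin, Ribavirin-OVA. All were prepared from nasal mucosa of C57BL/6 mice aged 8 weeks. OVA is ovalbumin, the allergen given to mice to model allergic rhinitis. Ribavirin is an antiviral drug, used in the study as a nasal spray, and Vehicle is its control. The sources used here did not state the ribavirin schedule or the number of mice behind a library. With 1 library a group, groups were not tested against each other and every interval between groups covers counting error only. Release of the cells by enzymes and selection for CD45 were common to the 4 groups.

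Regulatory T cells restrain other immune cells and limit damage in tissues. The transcription factor Foxp3, encoded at chrX:7573644-7595245 on the plus strand (GRCm38), maintains their programme, which includes the high affinity interleukin-2 receptor chain CD25 (Il2ra, chr2:11642807-11693193), the inhibitory receptor CTLA-4 (Ctla4, chr1:60887000-60915832) and the transcription factor Helios (Ikzf2, chr1:69531214-69687245, minus strand). In barrier tissues some of these cells carry ST2 (Il1rl1, chr1:40429570-40465415), the receptor for the alarmin interleukin-33, and the repair factor amphiregulin (Areg), and can express Gata3, the master regulator of type 2 helper cells.

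The label was checked against the markers that the rule did not use. With every cell thinned to 2000 UMIs, all of Il2ra, Ctla4 and Ikzf2 were found in 28.0% of the Foxp3+ cells of Vehicle, 57.7% in Vehicle-OVA, 31.4% in Ribavirin and 56.3% in Ribavirin-OVA. The same 3 genes were found together in between 0.983% and 3.53% of Foxp3- Cd4 T cells, which are the Cd8-negative T cells with a Cd4 UMI and no Foxp3 UMI. Foxp3+ cells with none of the 3 markers made up 3.36%, 0%, 4.85% and 0.893%. The label was therefore kept.

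Promoter sequence is shown for 3 surface receptor genes whose transcripts were higher in the Foxp3+ cells in every library. The windows are the 250 bases before a RefSeq transcription start (GRCm38.p6), all on the plus strand and outside annotated exons. Capitals mark TTTCCA or TGGAAA, the letters bound by NFAT factors downstream of the T cell receptor. The letters TTCNNNGAA (bound by STAT factors) and TGTTTAC (bound by forkhead factors) were also searched on both strands and were not in these 3 windows. A second Tnfrsf9 window, chr4:150927749-150927998, overlapped an annotated exon and is not shown. It held the STAT letters and not the NFAT letters.
Il2ra, chr2:11642542-11642791: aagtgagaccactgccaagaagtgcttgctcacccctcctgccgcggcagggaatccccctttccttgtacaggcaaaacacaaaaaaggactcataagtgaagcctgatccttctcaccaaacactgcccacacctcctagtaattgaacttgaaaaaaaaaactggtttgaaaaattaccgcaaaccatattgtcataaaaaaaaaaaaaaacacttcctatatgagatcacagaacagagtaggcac
Ctla4, chr1:60908775-60909024: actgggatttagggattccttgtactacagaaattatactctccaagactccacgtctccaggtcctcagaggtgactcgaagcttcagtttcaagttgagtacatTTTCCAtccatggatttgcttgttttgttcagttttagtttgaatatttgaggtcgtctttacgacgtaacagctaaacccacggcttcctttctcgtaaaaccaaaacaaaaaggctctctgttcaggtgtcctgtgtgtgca
Tnfrsf9, chr4:150919905-150920154: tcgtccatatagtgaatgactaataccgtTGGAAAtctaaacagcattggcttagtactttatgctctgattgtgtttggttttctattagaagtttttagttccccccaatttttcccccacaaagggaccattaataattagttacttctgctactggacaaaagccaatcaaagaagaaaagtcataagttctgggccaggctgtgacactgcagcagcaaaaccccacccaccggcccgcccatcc
The NFAT letters were in the Ctla4 and Tnfrsf9 windows and not in the Il2ra window. Among 32851 mouse promoter windows, 18.6% held the NFAT letters, 7.02% the STAT letters and 3.17% the forkhead letters. A match describes the sequence and not a bound site.

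The 4 libraries held between 91742940 and 171873110 UMIs. The Foxp3+ cells had a median of 4434.5 UMIs in Vehicle, 4516 in Vehicle-OVA, 4741 in Ribavirin and 5187 in Ribavirin-OVA. One Ribavirin cell held 96921 UMIs, or 3.91% of all UMIs of the Foxp3+ cells of that library, and genes that it dominates are named where they occur. Between 57 and 174 barcodes occurred in each pair of libraries, and none was a Foxp3+ cell in both. Marking of likely doublets named 55 of the Foxp3+ cells in Vehicle, 4 in Vehicle-OVA, 13 in Ribavirin and 1 in Ribavirin-OVA.

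The question of how many regulatory T cells the mucosa held depended on the denominator. There were 466 Foxp3+ cells in Vehicle, 99 in Vehicle-OVA, 394 in Ribavirin and 112 in Ribavirin-OVA. Of all kept CD45+ cells they were 1.81% in Vehicle (95% Clopper-Pearson interval 1.65 to 1.98), 0.566% in Vehicle-OVA (0.460 to 0.688), 1.94% in Ribavirin (1.76 to 2.14) and 1.27% in Ribavirin-OVA (1.05 to 1.53). Vehicle-OVA was the lowest library, and its interval did not meet the others. The share with OVA was 0.312 times that without it under vehicle (interval 0.249 to 0.389) and 0.654 times under ribavirin (0.525 to 0.808). Between the OVA libraries the share with ribavirin was 2.25 times that with vehicle (1.70 to 2.97), while without OVA the ratio was 1.07 (0.936 to 1.23). A share of CD45+ cells also moves with every other cell type in the denominator.

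Within the T cells the order was different. Of the Cd8-negative T cells, 9.68% were Foxp3+ in Vehicle (8.86 to 10.5), 9.86% in Vehicle-OVA (8.09 to 11.9), 13.2% in Ribavirin (12.0 to 14.5) and 9.30% in Ribavirin-OVA (7.72 to 11.1). Ribavirin was the highest library by this measure, and the other 3 had overlapping intervals. The ratio with OVA was 1.02 under vehicle (0.812 to 1.27) and 0.704 under ribavirin (0.565 to 0.870), and the ratio with ribavirin was 1.37 without OVA (1.19 to 1.57) and 0.943 with it (0.713 to 1.25). After thinning to 2000 UMIs the shares were 6.44%, 7.17%, 9.43% and 7.42%. The Ribavirin interval (8.40 to 10.5) then overlapped those of Vehicle-OVA (5.62 to 8.99) and Ribavirin-OVA (5.99 to 9.08). The ratio with OVA under ribavirin was 0.787 after thinning (0.612 to 1.005) and 0.799 with a mitochondrial limit of 5% (0.628 to 1.007), so both intervals included 1. Foxp3 UMIs were also found in cells that should lack the gene, whether from free RNA, doublets or their own transcripts, which was not tested. After thinning, a Foxp3 UMI was found in 0.0547% to 0.261% of macrophages and 0.0760% to 0.238% of neutrophils, whose median depths were 9937 to 12251 and 3039 to 3730.5 UMIs, and in 0% to 1.49% of Cd8 T cells. Cells at the edge of the rule were not rare. Exactly 1 Foxp3 UMI was found in 164 of the Vehicle cells, 19 in Vehicle-OVA, 92 in Ribavirin and 19 in Ribavirin-OVA. Just outside the rule were 39 cells with Foxp3 and 1 Cd3 UMI, 82 Foxp3+ T cells with 1 Cd8 UMI, 40 with more, and 280 removed by the macrophage, B cell and neutrophil genes.

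**Figure D1:**
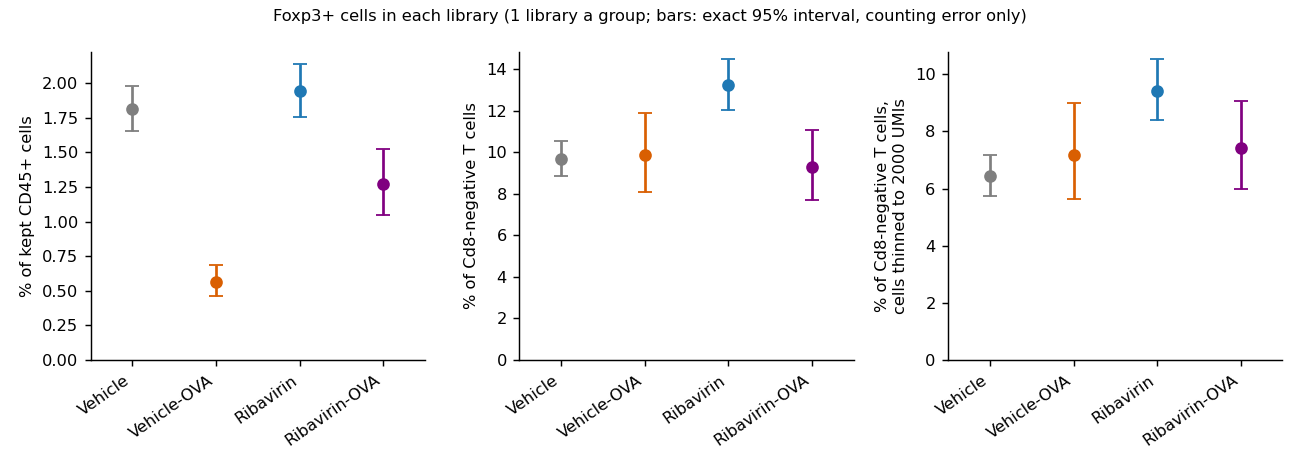
Share of Foxp3+ cells in each library, as % of kept CD45+ cells (left), % of Cd8-negative T cells (middle) and the latter with each cell thinned to 2000 UMIs (right). Points are the single library of a group and bars are exact 95% intervals for counting error. Vehicle-OVA is lowest in the left panel at 0.566%, and Ribavirin is highest in the middle panel at 13.2%.

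Foxp3+ cells were next compared with the Foxp3- Cd4 T cells of the same libraries, to ask which transcripts set them apart. The UMIs of each class were summed per library and fitted with edgeR's quasi-likelihood test, with library as a block, so that the 4 libraries were the replicates (n = 4 for each value in this comparison). Levels are in CPM, UMIs of a gene per 1000000 UMIs of its sum, and adjusted p-values are Benjamini-Hochberg values over all genes tested. Because each library had a different treatment, a class difference that varied with treatment counted as spread. Of 10286 genes tested, 1022 (9.94%) were higher and 1106 (10.8%) lower in the Foxp3+ cells at an adjusted p under 0.05. Without the Vehicle library the lower genes numbered 641, and without the Ribavirin library 657. The comparison cells all had a Cd4 UMI, which was found in 60.1% to 71.7% of the Foxp3+ cells, and with a Cd4 UMI required in both classes 966 genes were higher and 816 lower.

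The identity list held genes known for regulatory T cells, and all 14 of its tested members were higher, with a median log2 fold of 2.86 against -0.05 over all genes tested. Ikzf2 stood at 1170 CPM in Vehicle, 2442 in Vehicle-OVA, 945 in Ribavirin and 2509 in Ribavirin-OVA in the Foxp3+ cells, against 58.9, 232, 74.1 and 177 in the Foxp3- cells (log2 fold 3.77 ± 0.14 SE, edgeR adjusted p = 6.51e-06). The classes did not overlap. Il2ra stood at 369, 1426, 379 and 1094 CPM in the Foxp3+ cells against 34.7, 315, 29.9 and 234 (log2 fold 2.81 ± 0.38, edgeR adjusted p = 0.0231), so that the Foxp3- cells of the OVA libraries came near the Foxp3+ cells of the libraries without OVA. Ctla4 differed less, at 1183, 2763, 1313 and 2332 CPM against 642, 1046, 634 and 962 (1.11 ± 0.10, edgeR adjusted p = 4.28e-05). Lrrc32 encodes GARP, which holds latent TGF-beta on the surface of regulatory T cells. It had 76.6, 71.0, 62.9 and 149 CPM against 2.83, 5.45, 3.50 and 4.48 (4.45 ± 0.17, edgeR adjusted p = 1.35e-09). Itgb8, an integrin chain that takes part in activating latent TGF-beta, was also among the genes with the largest differences, at 56.1, 203, 73.8 and 167 CPM against 3.28, 17.3, 2.87 and 13.9 (3.88 ± 0.16).

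Receptors of the tumour necrosis factor family formed the second clear group, which shares Tnfrsf4, Tnfrsf9 and Tnfrsf18 with the identity list. Of 13 tested genes of these receptors and the NF-kB pathway, 10 were higher and 2 lower, with a median log2 fold of 0.70. The costimulatory receptor OX40 (Tnfrsf4) was 2.92 ± 0.08 higher on the log2 scale, 4-1BB (Tnfrsf9, chr4:150914562-150946102) 3.32 ± 0.30, Cd27 2.30 ± 0.22 and GITR (Tnfrsf18) 2.17 ± 0.18. Tnfrsf9 had 420, 1372, 497 and 675 CPM in the Foxp3+ cells against 27.3, 180, 33.9 and 105, with no overlap. The 2 lower members were the death receptor Tnfrsf25 (-0.53) and Nfkb1 (-0.52). Among 16 tested cytokine receptors 7 were higher and 3 lower, the latter being Tgfbr2 (-1.19), the interleukin-1 receptor Il1r1 (-1.04) and the interleukin-18 receptor Il18r1 (-0.97). Among the higher ones were Il4ra (1.22 ± 0.10) and Il10ra (1.16 ± 0.21).

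Effector cytokines were lower. Of 8 tested, 6 were lower, none higher and 2 did not pass, with a median log2 fold of -2.55. Il22, a cytokine that acts on epithelium, differed by -4.13 ± 0.19 (edgeR adjusted p = 2.65e-09) and Ifng by -2.61 ± 0.11 (edgeR adjusted p = 1.35e-09). Il17a stood at 178, 123, 65.3 and 10.5 CPM in Foxp3+ cells against 1265, 616, 1245 and 339 in Foxp3- cells (-3.41 ± 0.52, edgeR adjusted p = 0.0327), and Cd40lg, the helper signal to B cells, differed by -3.17 ± 0.24. Il17f (-2.48, edgeR adjusted p = 0.0801) and Il21 (-2.38, edgeR adjusted p = 0.0738) did not pass. The type 2 cytokines had too few UMIs to be tested. Il13 had 0, 1, 0 and 2 UMIs in the Foxp3+ cells, which is 1.69 and 2.64 CPM in the OVA libraries, where the Foxp3- Cd4 T cells had 62.3 and 88.7 CPM. Il4 had 2 UMIs in each OVA library and none in the others, against 36.0 and 41.7 CPM in the Foxp3- cells with OVA.

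Suppressive mediators were mixed. Of 13 tested, 7 were higher and none lower (median log2 fold 1.08). Higher were the ectoenzymes Entpd1 (CD39, 1.56) and Nt5e (CD73, 1.08), which turn extracellular ATP into adenosine, the checkpoint receptors Tigit (1.52) and Havcr2 (1.42), the interleukin-35 subunit Ebi3 (1.50), the costimulator Icos (0.49) and granzyme B. Gzmb had 213, 477, 275 and 115 CPM against 25.8, 36.9, 16.5 and 29.1 (3.21 ± 0.42, edgeR adjusted p = 0.0197). Il10, the anti-inflammatory cytokine, did not pass. It had 114, 904, 139 and 452 CPM in Foxp3+ cells and 6.40, 340, 18.5 and 293 in Foxp3- cells (2.06 ± 0.74, edgeR adjusted p = 0.188). Foxp3+ cells had more Il10 in every library, and the classes were farther apart without OVA than with it, a difference that was not tested. Tgfb1 differed by -0.05 ± 0.09 and did not pass, and Lag3 differed by 0.89 (edgeR adjusted p = 0.127).

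The tissue effector list was led by Klrg1, an inhibitory lectin receptor of differentiated lymphocytes, at 104, 221, 84.3 and 186 CPM against 6.55, 19.7, 3.87 and 35.6 (3.44 ± 0.38, edgeR adjusted p = 0.00802). Of its 12 tested genes 4 were higher, 1 lower and 7 did not pass (median 0.63). Prdm1 (Blimp-1), Nfil3 and Batf, transcription factors of effector regulatory T cells, were higher by 1.17, 0.96 and 0.40, and Id2 was lower (-0.57). Il1rl1 did not pass, with 135, 466, 121 and 431 CPM in Foxp3+ cells against 6.55, 219, 7.87 and 420 (2.05 ± 1.05, edgeR adjusted p = 0.318). The classes were far apart without OVA and close in Ribavirin-OVA. Gata3 had 134, 248, 109 and 429 CPM against 69.2, 344, 73.5 and 488 (0.19 ± 0.28, edgeR adjusted p = 0.718), so its order turned between libraries with and without OVA. Areg had 477, 772, 385 and 310 CPM against 90.1, 222, 44.7 and 267 (1.88 ± 0.60, edgeR adjusted p = 0.155). Among 10 tested factors that mark the parallel helper lineages, Maf (0.40), Stat3 (0.47), Stat5b (0.29) and Cxcr5 (1.31) were higher and Tbx21, the type 1 factor, was lower (-0.78).

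Of 10 tested genes of resting and circulating T cells 1 was higher, 3 were lower and 6 did not pass. The lower ones were Tcf7, Lef1 and the survival gene Bcl2. Tcf7 had 42.2, 37.2, 21.0 and 67.2 CPM against 153, 436, 147 and 297 (-2.51 ± 0.27, edgeR adjusted p = 0.00362). The 15 tested homing genes gave 4 higher, 1 lower and 10 that did not pass. Among the higher were the monocyte-type chemokine receptor Ccr2 at 582, 1365, 587 and 1103 CPM against 212, 294, 230 and 417 (1.56 ± 0.18), the epithelial-binding integrin chain Itgae (CD103, 2.98, edgeR adjusted p = 0.0479) and its partner Itgb7 (0.57). Cxcr6 was lower (-1.55). Ccr3, the eotaxin receptor, was on no list and had one of the largest differences, at 13.5, 25.3, 28.2 and 67.2 CPM against 1.27, 1.82, 0.999 and 1.34 (4.33 ± 0.33). Of 12 interferon-stimulated genes 5 were higher, led by Ifi27l2a (0.97). Of 14 cell cycle genes Mcm6 was higher and Pcna lower, and 12 did not pass. Of 82 cytosolic ribosomal protein genes 77 were lower and 1 higher, at a median log2 fold of -0.37.

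Markers of other cells showed few differences in the class comparison. None of 4 neutrophil, 4 macrophage and 1 dendritic genes tested passed, and 2 of 4 natural killer genes were lower. Cd79b (B cells) and Epcam (epithelium) were higher, from mean levels of 3.06 and 10.0 CPM to 16.2 and 28.6 CPM. Of 12 genes induced by tissue dissociation 2 were higher and 4 lower. The largest differences outside the lists were higher Frmd5 (4.95 ± 0.35), Pard6g (3.72), Ptpn5 (3.52) and Laptm4b (3.38), and lower St8sia1 (-3.36), Pde5a (-3.33), Tgfbr3 (-3.27), Igfbp7 (-3.00), Apol7e (-2.86), Hid1 (-2.78) and Tnfsf8 (-2.77, the ligand of CD30). Frmd5 had under 10 UMIs in every Foxp3- sum, and Tgfbr3 in every Foxp3+ sum. Both thus passed the filter on low counts through the class where they were higher alone.

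**Figure D2:**
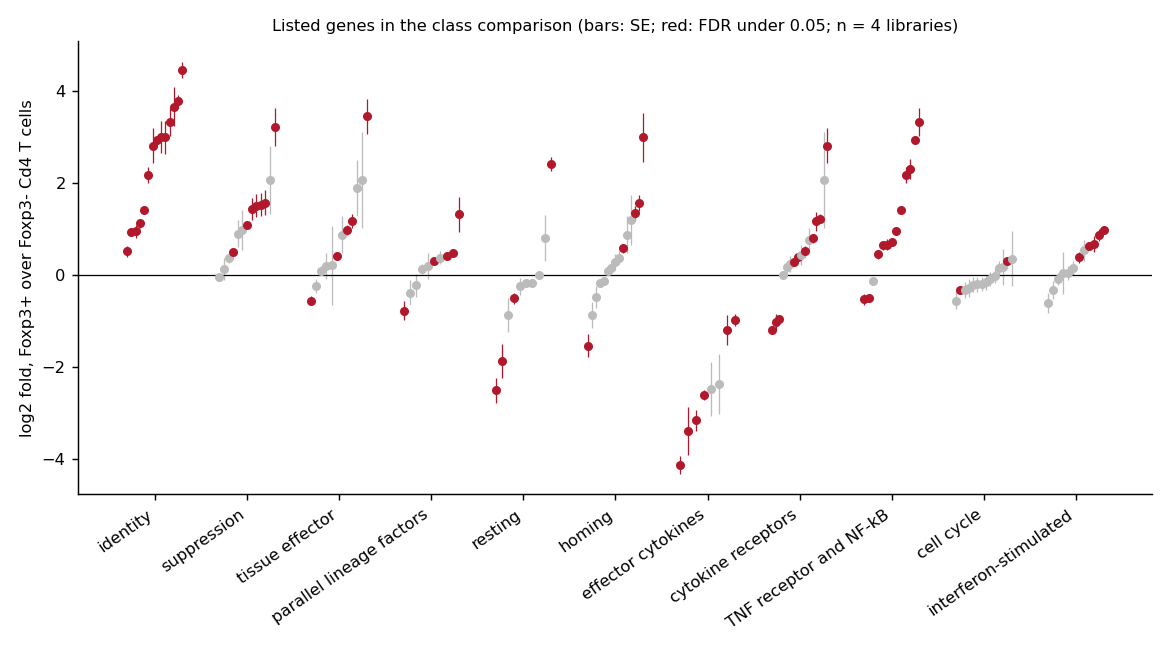
Fitted log2 fold of each tested list gene, Foxp3+ over Foxp3- Cd4 T cells, with SE bars over 4 libraries and adjusted p under 0.05 in red. All 14 identity genes lie above 0, and 6 of 8 effector cytokines are red below 0.

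**Figure D3:**
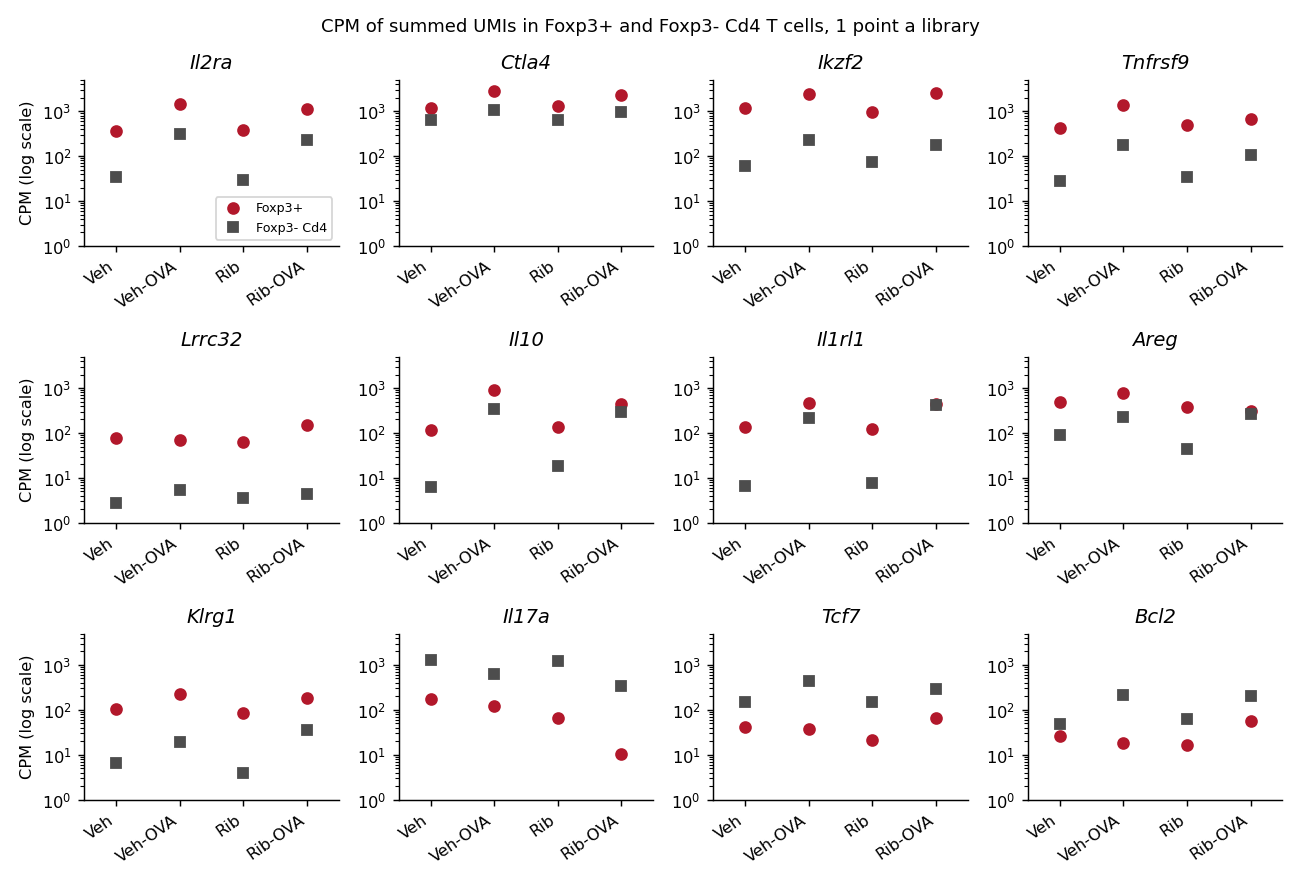
CPM of summed UMIs on a log axis in Foxp3+ and Foxp3- Cd4 T cells, 1 point a library. Ikzf2, Tnfrsf9 and Klrg1 separate the classes in all 4 libraries, while Il10 and Il1rl1 of Foxp3- cells in the OVA libraries reach into the range of the Foxp3+ cells.

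Variation among the Foxp3+ cells was then examined along ST2. An Il1rl1 UMI was found in 352 of the 1071 cells (142 in Vehicle, 43 in Vehicle-OVA, 111 in Ribavirin, 56 in Ribavirin-OVA), and the median depth of cells with and without it was 4317 and 4475 UMIs in Vehicle, 4587 and 4482 in Vehicle-OVA, 4815 and 4615 in Ribavirin, and 5017 and 5666 in Ribavirin-OVA. After thinning, 17.5% of cells carried it in Vehicle, 32.0% in Vehicle-OVA, 17.6% in Ribavirin and 42.0% in Ribavirin-OVA. Summed UMIs of Il1rl1+ and Il1rl1- cells were compared in 4 libraries. Of 6898 genes tested, 32 (0.464%) were higher and 7 (0.101%) lower in the Il1rl1+ cells. Without the Vehicle library 16 genes in all passed, and without the Ribavirin library 23.

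Klrg1 had the largest difference. It stood at 213, 337, 172 and 265 CPM in the Il1rl1+ cells against 57.1, 126, 52.7 and 115 in the Il1rl1- cells (log2 fold 1.58 ± 0.14, edgeR adjusted p = 3.86e-07, n = 4 libraries). Per cell, after thinning, Klrg1 was found in 35.9%, 41.9%, 34.8% and 34.0% of Il1rl1+ cells and in 10.3%, 19.7%, 8.98% and 13.8% of Il1rl1- cells. Gata3 (chr2:9857078-9890034, minus strand) was also higher, with 185, 333, 158 and 599 CPM against 112, 179, 91.1 and 275 (0.87 ± 0.12, edgeR adjusted p = 0.000211). Higher too were Il2ra (0.75), Tnfrsf4 (0.48), Tnfrsf9 (0.54), Ikzf2 (0.42), the interleukin-7 receptor Il7r (0.49), the NF-kB regulators Nfkbiz (0.84) and Tnfaip3 (0.57), Fam46a (1.01), Id2 (0.39), Junb (0.41) and Dusp1 (0.52). Junb and Dusp1 are on the list of genes induced by tissue dissociation. The part of cell release in their differences was not tested. Areg was higher in each library, at 795, 1028, 651 and 538 CPM against 340, 561, 289 and 105, and did not pass (1.28 ± 0.22, edgeR adjusted p = 0.144). Il10 differed by 0.39 (edgeR adjusted p = 0.202). The lower genes included the DNA replication genes Tyms (-1.31), Mcm5 (-1.12) and Mcm6 (-0.68), the chemokine Ccl5 (-0.996 ± 0.11, edgeR adjusted p = 1.13e-05), Tbc1d4 (-1.18) and Podnl1 (-0.83). Mup5 (0.92), a secretory protein gene of nasal glands, and Efcab14 (0.83) also passed.

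**Figure D4:**
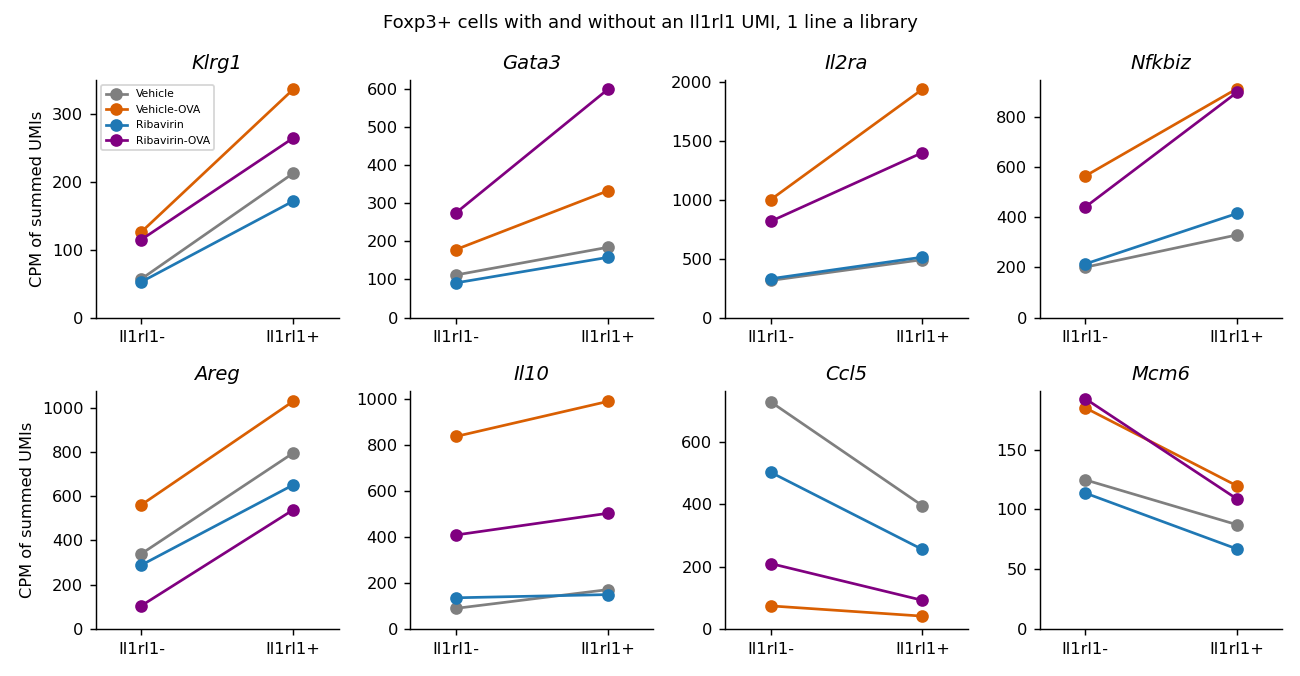
CPM of summed UMIs in Foxp3+ cells without and with an Il1rl1 UMI, 1 line a library. The Klrg1 and Gata3 lines climb in all 4 libraries, and the Ccl5 and Mcm6 lines descend. Areg climbs in all 4 but did not pass the test.

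Helios was carried by most of the cells. An Ikzf2 UMI was found in 954 of 1071 cells (411 in Vehicle, 91 in Vehicle-OVA, 345 in Ribavirin, 107 in Ribavirin-OVA), so that only Vehicle (55) and Ribavirin (49) had at least 15 cells without it and could be fitted. Over these libraries (n = 2), 45 of 7670 genes (0.587%) were higher and 35 (0.456%) lower in the Ikzf2+ cells. Of 12 tested identity genes 7 were higher and none lower: Lrrc32 (log2 fold 2.49 ± 0.37), Tnfrsf9 (2.11 ± 0.25), Ikzf4 (1.64), Tnfrsf4 (1.39 ± 0.11), Tnfrsf18 (1.36), Il2ra (1.27 ± 0.17) and Izumo1r (0.98). Nrp1 (0.89), Tnfrsf1b (0.76), Il2rb (0.63), Ctla4 (0.095) and Capg (0.089) did not pass. Pdcd1 (1.51) and Cd27 (1.22) were also higher. Of 10 tested tissue effector genes Il1rl1, Areg and Klrg1 (2.33 ± 0.37) were higher and 7 did not pass, among them Gata3 (1.14, edgeR adjusted p = 0.109), Id2 (-0.55, edgeR adjusted p = 0.0565) and Irf4 (-0.67). Il1rl1 had 152 and 132 CPM in the Ikzf2+ cells of Vehicle and Ribavirin against 13.2 and 38.6 (2.46 ± 0.33, edgeR adjusted p = 0.000777), and Areg 507 and 421 against 251 and 109 (1.39 ± 0.20, edgeR adjusted p = 0.00144). Penk, the enkephalin precursor, had 180 and 200 CPM against 13.2 and 7.01 (4.19 ± 0.35, edgeR adjusted p = 3.26e-06).

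The Ikzf2- cells had more of the type 17 cytokine Il17f, at 211 and 80.6 CPM against 10.96 and 2.28 (-4.50 ± 0.34, edgeR adjusted p = 1.18e-06), from 89 UMIs in 12 Vehicle cells and 28 UMIs in 4 Ribavirin cells over both classes of the split. The interleukin-17 receptor Il17re (-1.90), Serpinb1a (-1.79), Cd7 (-1.97), Ccr9 (-1.58), Il1r1 (-1.58), Rbm24 (-2.23), Ly86 (-2.03), Ccr2 (-0.63) and Jun (-0.60) were also higher in Ikzf2- cells. Jun is on the list of genes induced by tissue dissociation. Il17a (-1.09, edgeR adjusted p = 0.901) did not pass. Secretory and epithelial transcripts were also called. Lcn3 (5.86) and Obp2b (5.34), lipocalins of nasal glands, and Ltf (3.05) rested on the Ribavirin cell of 96921 UMIs, which held 98.6% of the Lcn3 UMIs of its library. Without the deepest cell of each library the log2 folds were -0.54, -0.63 and 0.09. Epcam (4.60) and Tmem158 (8.10) were the other large differences. Tmem158 had no UMI in the Ikzf2- cells. Epcam, Penk, Lrrc32 and Klrg1 had under 10 UMIs in the Ikzf2- sum of both libraries. All of these genes thus passed the filter on low counts through the Ikzf2+ sums alone. Lrrc32 and Klrg1 are among the list members counted as higher above.

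The effect of the allergen on the Foxp3+ cells was described from 2 pairs that share no library, Vehicle-OVA over Vehicle and Ribavirin-OVA over Ribavirin. With 1 library a group no test was made. Ratios are of CPM and intervals are exact 95% intervals of the ratio of UMI counts. Log2 ratios carry a pseudocount of 5 CPM, which understates the change of low genes. Among 8470 genes with at least 50 UMIs, 893 (10.5%) were at least 2-fold higher and 460 (5.43%) at least 2-fold lower under vehicle, and 863 (10.2%) higher and 380 (4.49%) lower under ribavirin. In both pairs together 296 genes (3.49%) were higher and 202 (2.38%) lower. This split depended on scaling. The median gene was at 0.24 and 0.32 on the log2 scale, and with TMM scaling, which recentres the libraries, 35 genes were higher and 558 lower. Long genes were relatively higher with OVA. The 10% of genes with the shortest transcripts had medians of -0.60 and -0.56, and the 10% with the longest 0.59 and 0.69. After each gene was centred on genes of its own length, 51 were higher and 187 lower. The cause of the length pattern was not tested. In the Foxp3- Cd4 T cells the same genes gave 376 higher and 188 lower.

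Of 13 suppression genes, Il10 and Lag3 were at least 2-fold higher with OVA in both pairs. Il10 went from 114 to 904 CPM under vehicle (ratio 7.95, interval 6.88 to 9.19) and from 139 to 452 CPM under ribavirin (3.26, 2.80 to 3.80), and its transcript was found in 12.6%, 37.1%, 13.8% and 25.0% of thinned cells. Both OVA libraries were above both others. Lag3, an inhibitory receptor for MHC class II, went from 54.9 to 262 CPM (4.77, 3.77 to 6.03) and from 51.2 to 190 (3.71, 2.90 to 4.74). Over the list 9 genes were at least 2-fold higher under vehicle and 2 under ribavirin, with median log2 ratios of 1.14 and 0.68. Gzmb was at least 2-fold lower under ribavirin (1.14 and -1.22), and Lgals1, which encodes galectin-1, was lower in both pairs without passing 2-fold (-0.49 and -0.99). Centred on genes of like length, Lgals1 was at 0.10 and -0.43. Havcr2 (TIM-3) went from 47.6 to 237 CPM under vehicle (4.97, 3.87 to 6.39) and was at 75.4 and 83.1 CPM under ribavirin (1.10, 0.814 to 1.47). The difference between the pairs was not tested.

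The tissue effector genes had median log2 ratios of 1.07 and 1.00 over 10 genes measured, and 4 of them, Il1rl1, Klrg1, Prdm1 and Irf4, were past 2-fold in both pairs. Areg (0.69 and -0.31) and Batf (-0.17 and -0.49) were not. Il1rl1 went from 135 to 466 CPM under vehicle (3.44, 2.93 to 4.04) and from 121 to 431 under ribavirin (3.56, 3.04 to 4.18). In the Foxp3- Cd4 T cells the ratios for Il1rl1 were 33.5 and 53.4, from 6.55 to 219 and from 7.87 to 420 CPM. Gata3 went from 134 to 248 CPM (1.86, 1.52 to 2.26) and from 109 to 429 CPM (3.93, 3.34 to 4.64), against 4.97 and 6.64 times in Foxp3- cells. Per thinned cell Gata3 was found in 24.0%, 39.2%, 20.9% and 55.4%. Klrg1 was found in 14.8%, 26.8%, 13.5% and 22.3% of thinned cells, with ratios of 2.13 and 2.21. Prdm1 had ratios of 3.40 (2.73 to 4.21) and 3.01 (2.49 to 3.65). Whether the allergen acted differently on the classes was not tested.

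Identity genes had median log2 ratios of 0.63 and 0.83 over 14 genes, none of them in the rule, against 0.24 and 0.32 over all genes. Of these, Il2ra and Ikzf2 were past 2-fold in both pairs, while Tnfrsf18 (0.03 and -0.35) and Lrrc32 (-0.10 and 1.18) lay on opposite sides of 0. Il2ra had ratios of 3.87 (3.52 to 4.25) and 2.89 (2.63 to 3.18), and 43.0%, 70.1%, 45.4% and 67.9% of thinned cells carried it. Ctla4 had ratios of 2.34 (2.20 to 2.48) and 1.78 (1.68 to 1.88), and Ikzf2 of 2.09 (1.96 to 2.22) and 2.65 (2.50 to 2.82). Centred on genes of like length, the log2 ratios of Il2ra were 1.52 and 1.00, those of Il1rl1 1.27 and 1.25, those of Il10 3.54 and 2.23, and those of Ikzf2, a long gene, 0.47 and 0.71. Those of Tnfrsf18, a short gene, were then 0.63 and 0.21. Tnfrsf9 had ratios of 3.27 (2.98 to 3.58) under vehicle and 1.36 (1.22 to 1.51) under ribavirin. Capg, an actin-capping protein, was lower in both (0.523 and 0.430 times). Tnfaip3 and Birc3, targets of NF-kB, were past 2-fold in both pairs (Tnfaip3 2.30 and 2.14, Birc3 2.39 and 2.22), as were Maf (2.33 and 2.31), Bcl6 (3.06 and 4.77), Satb1 (3.11 and 2.18), Il10ra (2.94 and 2.86), Cxcr4 (2.04 and 2.14) and Cxcr6 (2.20 and 2.45). Of the 16 listed genes past 2-fold in both pairs, markers of other cells aside, 7 stayed past it in both when centred on length (Il10, Lag3, Il2ra, Il1rl1, Klrg1, Cxcr4 and Cxcr6). Ikzf2, Tnfaip3 (0.65 and 0.44), Maf (0.67 and 0.55), Irf4 (0.61 and 0.47) and Birc3 (0.90 and 0.79) were under 2-fold in both. Bcl6 (0.87 and 1.28), Satb1 (1.07 and 0.46), Il10ra (1.11 and 0.99) and Prdm1 (1.23 and 0.998) were under it in 1 pair.

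Cell cycle genes did not move together with OVA. The 14 genes had median log2 ratios of -0.50 and -0.99, with 5 at least 2-fold lower under vehicle, 7 under ribavirin and none 2-fold higher, and Stmn1, Tyms, Cdk1 and Birc5 were lower in both pairs. The replication genes Pcna (0.32 and 0.50) and Mcm6 (0.44 and 0.57) lay above 0 in both, and Mcm3 (-0.28 and 0.49) and Mcm5 (-0.31 and 0.93) on opposite sides. Stmn1, which destabilises microtubules, went from 230 to 59.1 CPM (0.257, 0.178 to 0.362) and from 244 to 69.9 CPM (0.287, 0.212 to 0.380). Birc5 (survivin) went from 92.1 to 25.3 CPM and from 95.2 to 13.2 CPM. Histone genes led the lower genes. Hist1h1b had 767 UMIs in Vehicle, 19 in Vehicle-OVA, 774 in Ribavirin and 3 in Ribavirin-OVA, and Hist1h1e 365, 8, 400 and 15, and Hist1h4d, Hist2h2ac, Hist1h2ae and Hist1h2bj also stood among the 8 with the lowest ratios. Mki67, a marker of cycling cells, differed less, at 164, 193, 152 and 98.9 CPM and 11.9%, 8.25%, 12.8% and 12.5% of thinned cells. Of 81 cytosolic ribosomal protein genes 49 were at least 2-fold lower under vehicle and 40 under ribavirin (medians -1.08 and -0.99). Interferon-stimulated genes had medians of 0.43 and -0.59, and none was past 2-fold the same way in both pairs.

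Genes usually made by other cells stood among the largest OVA ratios. Spp1 (osteopontin) went from 9 to 28 UMIs and from 8 to 22 UMIs, Slpi from 51 to 57 and from 41 to 73, Lgmn from 58 to 58 and from 65 to 77, in libraries with fewer Foxp3+ UMIs with OVA, so their CPM ratios were 13.6 and 8.99, 4.88 and 5.82, and 4.37 and 3.87. Chil4, a chitinase-like protein, had 0, 8, 5 and 118 UMIs, which is at least 11.6-fold higher under vehicle against a floor of 3 UMIs per library. In Foxp3- Cd4 T cells the Chil4 ratio was 41.2 under vehicle. Epas1 (8.34 and 5.62) had 50 of its 67 Ribavirin-OVA UMIs in 1 cell, and Rnf157 (3.49 and 4.00) closed the list of 8. Lyz2, the lysozyme of macrophages, was lower (766 to 24 UMIs and 764 to 26), as was Klrk1, an activating receptor of cytotoxic cells (68 to 0 and 40 to 0). Summed over their lists, macrophage markers had 771, 257, 623 and 277 CPM in the Foxp3+ cells and neutrophil markers 383, 975, 529 and 245 CPM, with Cxcr2 (in the rule) the neutrophil marker at 0. The macrophage sums were lower with OVA in both pairs, and the neutrophil sums were highest in Vehicle-OVA. B and plasma cell markers had 289, 89.6, 207 and 170 CPM, natural killer markers 287, 172, 256 and 60.6, and dendritic markers 19.7, 6.76, 35.1 and 9.23. Genes of the rule also entered other sums. The macrophage list held C1qa, C1qb and C1qc, which the rule capped, and the B and plasma list held Cd79a, fixed at 0. Mast cell markers were at or near 0 except for 121 CPM in Ribavirin-OVA, where 60 of 61 Cpa3 UMIs were in 1 cell. The part of these other transcripts in the OVA differences was not tested.

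**Figure D5:**
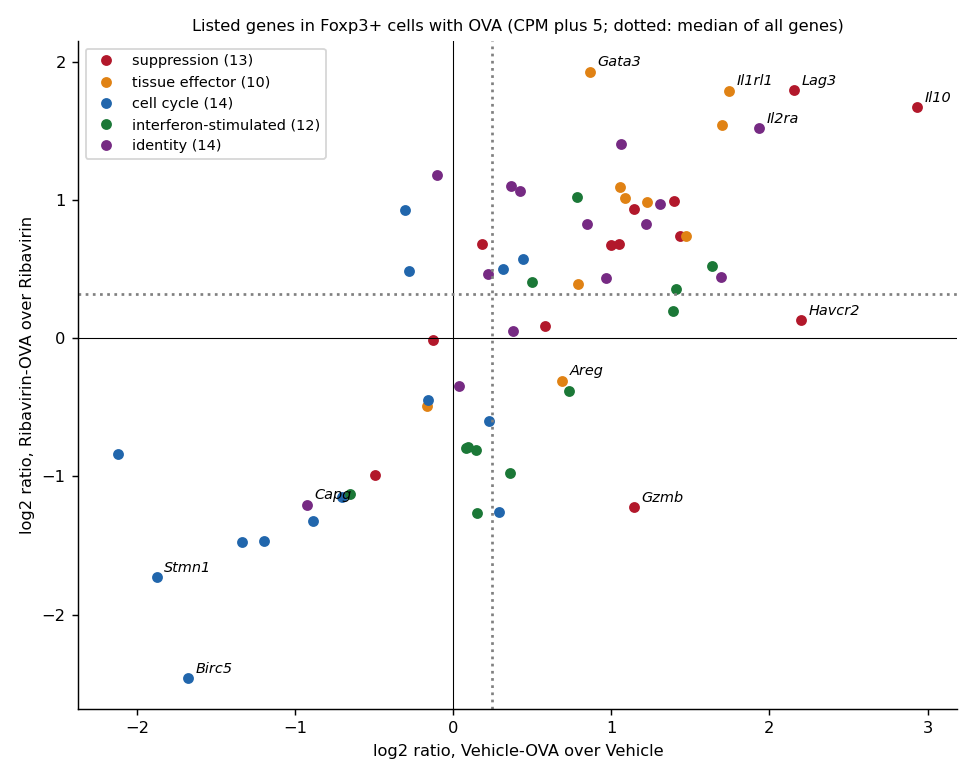
Log2 ratio of CPM (pseudocount 5 CPM) with OVA over without OVA in Foxp3+ cells, 1 point a gene. The vehicle pair is on the horizontal axis and the ribavirin pair on the vertical axis. Il10, Il2ra, Il1rl1 and Lag3 are above 0 on both axes, Stmn1 and Birc5 are below 0 on both, and Gzmb lies on opposite sides (1.14 and -1.22).

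Ribavirin was described from the pairs Ribavirin over Vehicle and Ribavirin-OVA over Vehicle-OVA, which share no library with each other but share all 4 with the OVA pairs. In both of these, 44 of 8470 genes (0.519%) were at least 2-fold higher and 1 (0.0118%) at least 2-fold lower, against 25 and 0 for the same genes in Foxp3- Cd4 T cells. The higher genes were led by secretory proteins of nasal glands. The odorant-binding protein gene Obp1a had 58.0 CPM in Vehicle, 8.45 in Vehicle-OVA, 1202 in Ribavirin and 382 in Ribavirin-OVA, found in 25.5%, 5.05%, 88.8% and 82.1% of the Foxp3+ cells. Both ribavirin libraries lay above both vehicle libraries. Over all kept cells of any type, Obp1a had 4283, 437, 17824 and 9372 CPM, and its ratios in Foxp3- Cd4 T cells were 19.0 and 31.4, against 20.7 and 45.3 in Foxp3+ cells. Obp1b, Mup4, Bpifb9b, Cbr2, Lcn11 and BC051076 were also among the 8 with the largest ratios, as was Obp2a, for which the single deep Ribavirin cell held 97.3% of the UMIs of its library. Epithelial markers summed to 40.6, 52.4, 138 and 290 CPM. The part of free RNA in these values was not tested.

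The gene lower in both ribavirin pairs was Il17a. It had 461 UMIs in Vehicle, 73 in Vehicle-OVA, 162 in Ribavirin and 8 in Ribavirin-OVA, with ratios of 0.366 (0.304 to 0.439) without OVA and 0.0855 (0.0356 to 0.178) with it, against 0.984 and 0.549 in Foxp3- Cd4 T cells. The UMIs came from 56 of 466 Foxp3+ cells in Vehicle, 9 of 99 in Vehicle-OVA (47.9% of them in 1 cell), 34 of 394 in Ribavirin and 4 of 112 in Ribavirin-OVA. Plac8 (0.532 and 0.505 times), Ms4a6c, Slc15a2, Plk1, Fcgr3, H2-DMb2 and Dclre1c had the next lowest ratios, all under 2-fold in at least 1 pair. The list medians without OVA lay close to the median of all genes (-0.04). Identity genes had a median log2 ratio of -0.10, suppression genes 0.05, tissue effector genes -0.02 and cytokine receptors -0.06, with no gene of these lists past 2-fold. Few genes of any kind were, with 57 of all 8470 at least 2-fold higher and 9 lower. With OVA the same lists had medians of -0.23, -0.43, -0.18 and -0.30 against 0.03 over all genes. The members of these lists past 2-fold with OVA were Tnfrsf9 (0.492, 0.440 to 0.550), Lrrc32 at 149 against 71.0 CPM, Havcr2 at 83.1 against 237 CPM, Gzmb (0.241, 0.187 to 0.307), Areg (0.401, 0.341 to 0.471) and Il1r2 at 146 against 387 CPM. Among all 8470 genes, 282 were at least 2-fold higher and 209 lower in this pair.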

How the data were processed

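The authors deposited, for each library, a matrix of UMI counts per gene and cell barcode from Cell Ranger 5.0.0 on mm10, per the submitters' processing notes. These are whole counts of called cells with no normalization, listing 27998 genes. The labels name magnetic beads for the CD45+ selection and the series text names fluorescence-activated sorting. Cells were chosen by the rule given above, and groups came from the labels, 1 library each.

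From the counts, UMIs were summed over the Foxp3+ cells and over the Foxp3- Cd4 T cells of each library. Class differences and the Il1rl1 and Ikzf2 splits were tested with edgeR 4.0.16 (R 4.3.3), quasi-likelihood with TMM scaling, library as a block and Benjamini-Hochberg adjustment at 0.05. Genes tested had at least 10 UMIs in at least 4 sums and 50 in all. Fewer sums were enough where fewer libraries were fitted, with 2 sums for the Ikzf2 split. The genes of the rule were not tested. DESeq2 1.42.0 was an alternative. No p-value was made between groups. Shares have Clopper-Pearson intervals and CPM ratios exact conditional binomial intervals at 95%, which cover counting error only. PCR duplicates were already collapsed by UMI in the deposited counts. Depth was equalised where stated by drawing 2000 UMIs from each cell. Doublets were scored by simulation on 30 components of 2000 variable genes. The automatic threshold failed, so the share expected from loading was marked (4.22% to 11.3% of cells), a choice made after seeing the data. Marked cells were kept in the main results. The scripts were tested on simulated data.

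Genes named in the text are those of 21 lists, the 10 with the largest class difference in each direction (mean of at least 20 CPM in the higher class and the same direction in all 4 libraries), 6 in each direction per split and 8 in each direction per kind of pair. The lists of Cd8 T and gamma delta T cell genes held no gene that could be tested. The members, lists and rules were chosen with earlier results of these data known. Transcript lengths and gene positions are from GENCODE M21 (GRCm38), and promoter sequences from RefSeq (GRCm38.p6), where Ikzf2, Itgae and Klrg1 had no entry. A few listed genes are not reported here.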

Additional observations from a re-analysis of the deposited data

Results flagged for a closer look

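By CPM, a handful of listed genes moved in opposite directions with OVA under vehicle and under ribavirin in the Foxp3+ cells. With 1 library a group the difference between the pairs was not tested. Gzmb had log2 ratios of 1.14 under vehicle and -1.22 under ribavirin, with Ribavirin-OVA the lowest library at 115 CPM and Vehicle-OVA the highest at 477 CPM. Areg had 0.69 and -0.31, while in Foxp3- Cd4 T cells its CPM ratios were 2.47 and 5.97. Itgb1, an integrin chain of memory and effector T cells, had -0.99 and 0.38. The neutrophil transcripts S100a8 (1.52 and -0.69) and S100a9 (1.06 and -1.40) moved likewise, and in Foxp3- Cd4 T cells their log2 ratios were 2.13 and -1.44, and 2.03 and -1.75. Centred on genes of like length, Areg lay above 0 in both pairs (1.29 and 0.25) and Itgb1 below it (-1.33 and -0.02). Gzmb (1.26 and -1.13), S100a8 (2.12 and -0.13) and S100a9 (1.66 and -0.84) stayed on opposite sides.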

How the results depend on the processing

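Counting only cells with at least 2 Foxp3 UMIs moved 4 log2 share ratios. The share of kept cells became -1.36 for OVA under vehicle and 0.34 for ribavirin without OVA, and the share of Cd8-negative T cells 0.35 and 0.69 for the same pairs. The class comparison gave 212 higher and 164 lower genes without the library block, 639 lower with DESeq2 and 1870 lower with no filter on low counts. Leaving out each library in turn gave 704 to 1108 higher and 641 to 890 lower genes, and 16 to 56 genes in the Il1rl1 split. With doublets removed, a setting chosen after seeing the data, 136 genes differed in the Ikzf2 split. Leaving out a library was not run for that split, since 1 library would leave no residual degrees of freedom. Of 1795 values for 151 listed or named genes in the class comparison, 1571 kept their side of the threshold, 92 newly passed, 132 no longer passed and 0 changed sign. In the splits 25 of 103 values no longer passed. Of 1620 values for ratios between libraries, 1129 stayed within their interval, 489 moved outside it and 2 changed sign. With TMM scaling, 86 of 146 listed or named genes moved outside it for OVA under vehicle, and 102 of 146 under ribavirin. Genes at least 2-fold higher with OVA in both pairs numbered 511 with a pseudocount of 1 CPM, 35 with TMM scaling and 51 when centred on length, and 558 were lower with TMM. Signs turned for Lcn3 (-0.54) and Obp2b (-0.63) without the deepest cells, and for Ccnb2 (0.12) and Ifit3 (0.051) with OVA under ribavirin after thinning. The cause of these changes was not tested, other than the single cell that held most Lcn3 UMIs. No paired analysis was possible because each group has 1 library. With 99 and 112 Foxp3+ cells, the OVA libraries limit the precision of every OVA ratio.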
